A study of Arabidopsis thaliana with 16 samples.

Results

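The 5 ethylene receptor genes of Arabidopsis thaliana were examined in ChIP-seq peak sets of ENAP1, a nuclear protein that interacts with the ethylene signalling protein EIN2. They are ETR1 (AT1G66340), ERS1 (AT2G40940), ETR2 (AT3G23150), ERS2 (AT1G04310) and EIN4 (AT3G04580), chosen by locus among 27432 nuclear protein-coding genes. A receptor gene was counted as having an ENAP1 region where a peak of a set overlapped its span or the 1000 bp on each side of it. All 5 loci were found in the gene table, and 13 regions lay at them over 4 peak sets.

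Ethylene receptors are membrane proteins, mostly of the endoplasmic reticulum, that bind the gas through a copper ion. They are related to bacterial two-component histidine kinases. In air they keep the kinase CTR1 active, which holds EIN2 back. Bound ethylene turns the receptors off, so that EIN2 is released and a fragment of it acts in the nucleus, where the transcription factors EIN3 and EIL1 carry the response. ETR1 and ERS1 form subfamily I, with a canonical histidine kinase domain, and ETR2, ERS2 and EIN4 form subfamily II, whose kinase domain is degenerate. ERS1 and ERS2 lack the receiver domain that the other receptors carry. Transcripts of ERS1, ETR2 and ERS2 are known to be induced by ethylene, so the receptor genes are targets of the pathway as well as its entry point.

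The 4 ChIP groups were ein2 seedlings in ethylene, ein2 seedlings in air, Col-0 seedlings in ethylene and Col-0 seedlings in air. Col-0 is the wild-type accession, and the ein2 mutant is insensitive to ethylene. All were whole seedlings, dark-grown at 24 °C for 3 days and then held for 4 hours in hydrocarbon-free air, either plain or with 10 ppm ethylene. The antibody used for the ChIP recognises green fluorescent protein. Peak lists carry no expression values, so the ein2 genotype could not be checked from them. Each ChIP group had 2 samples, as had each of the 4 matching input groups without antibody, 16 samples in all. The labels used here give neither the construct or promoter of the tagged ENAP1 nor the ein2 allele, and no sample is a ChIP from untagged plants, so signal of the antibody without ENAP1 cannot be told apart from binding. The labels point both ChIP replicates of a group to 1 peak set, so no value has a replicate spread and no difference between groups was tested. In the set names the ethylene and air ChIP libraries are numbered in different styles in both lines, and anything that this marks cannot be told apart from ethylene.

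The sets held 4696 regions in ein2 ethylene, 3252 in ein2 air, 5137 in Col-0 ethylene and 7852 in Col-0 air, and the depth behind them is unknown because the peak lists carry no read counts. Their lowest −log10 q values were 6.57, 10.9, 10.8 and 13.4 in the same order. A missing region therefore means only that no peak passed the threshold of that set. Fold is the authors' enrichment of ChIP signal over local background at the summit. It is used to rank regions within their own set, and the rank is given as the percentage of regions of that set with a higher fold.

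In Col-0 air all 5 receptor genes carried a region, where 35.5% of all genes did. With the 3252 regions of lowest p taken from each set, 3 of 5 did in Col-0 air (ETR1, ETR2 and EIN4), against 17.5% of all genes, and 3 of 5 in ein2 air, against 16.9%. In ein2 ethylene 3 of 5 had a region, against 22.4% of all genes, and in ein2 air 3 of 5, against 16.9%. In Col-0 ethylene 2 of 5 had a region, against 26.2% of all genes. ETR1 and ETR2 were the 2 receptor genes present in every set. ERS1 was in ein2 ethylene and Col-0 air, EIN4 in ein2 air and Col-0 air, and ERS2 in Col-0 air. Exactly these patterns were shown by 12.8% of all genes for ETR1 and ETR2, 3.05% for ERS1, 0.39% for EIN4 and 6.98% for ERS2.

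**Figure D1:**
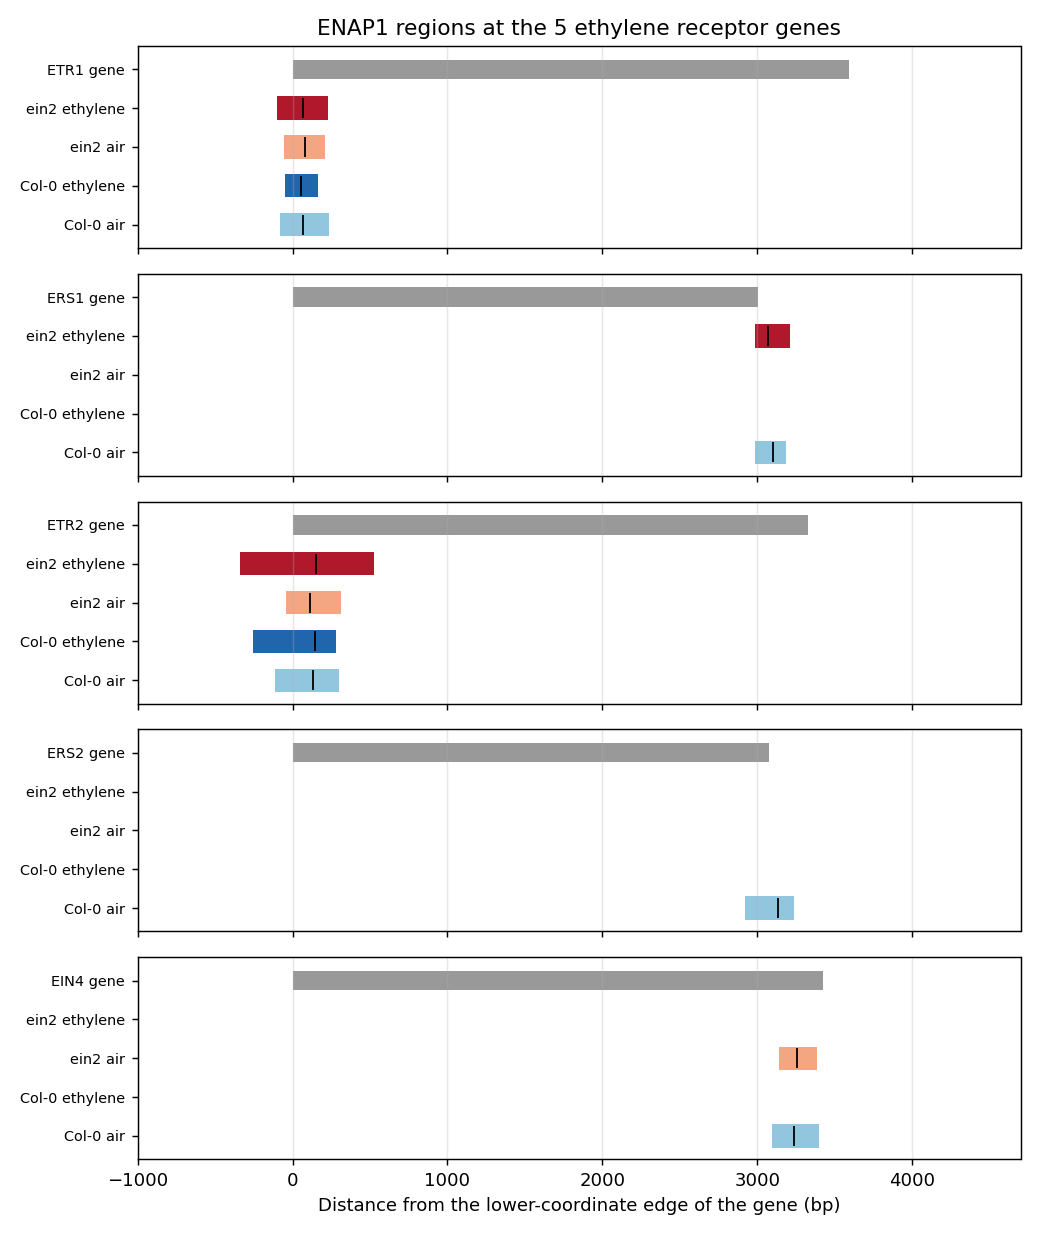
Each panel shows 1 receptor gene as a grey bar, with its ENAP1 regions in the 4 peak sets below it on an axis of distance (bp) from the lower-coordinate edge of the gene; black ticks are summits. The 13 regions lie at 1 edge per gene, the lower-coordinate edge at ETR1 and ETR2 and the higher-coordinate edge at ERS1, ERS2 and EIN4, with summits 54 to 185 bp from that edge.

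At each receptor gene the regions lay at 1 edge of the gene and at the same place in every set that had one. The 8 regions of ETR1 and ETR2 were at the edge of lower coordinate and the 5 of ERS1, ERS2 and EIN4 at the edge of higher coordinate. All 13 regions extended into the gene. The summit was inside the gene for the 10 regions of ETR1, ETR2 and EIN4 and just outside it for the 3 of ERS1 and ERS2. Strand was not part of the gene annotation used here, and which of the edges is the start of the gene is not stated for this reason. Summits within 185 bp of an edge of any protein-coding gene made up 59.4% of all regions in ein2 ethylene, 62.9% in ein2 air, 61.2% in Col-0 ethylene and 58.9% in Col-0 air, so this position is common among ENAP1 regions. The genes themselves are 3006 to 3595 bp long. The 185 bp is the largest distance of the 13 receptor summits from the edge of their own gene, so all 13 lie within it by definition.

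ETR2, a subfamily II receptor, carried the strongest region among the receptors in each set. In ein2 ethylene it spanned 8254222 to 8255085 of chromosome 3, 864 bp wide, with a fold of 8.29. In ein2 air it spanned 8254519 to 8254872 with a fold of 9.42. This ETR2 region stood near the top of both ein2 sets. It ranked 2 of 4696 by fold in ein2 ethylene and 19 of 3252 in ein2 air.

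In Col-0 ethylene the ETR2 region spanned 8254301 to 8254837 with a fold of 6.81, and in Col-0 air it spanned 8254444 to 8254861 with a fold of 12.8. It ranked 255 of 5137 in Col-0 ethylene and 25 of 7852 in Col-0 air, so that 4.94% and 0.306% of the regions were higher. Ranked by −log10 p in place of fold, ETR2 had 0.043% of the regions above it in ein2 ethylene, 1.35% in ein2 air, 10.3% in Col-0 ethylene and 0.484% in Col-0 air. The 4 summits of ETR2 lay between 8254670 and 8254707, a spread of 37 bp, and a stretch of 319 bp was common to all sets. Over the 2269 regions shared by all 4 sets the median spread of summits was 29 bp. Width varied more than the summit did. The ETR2 region was 864 bp wide in ein2 ethylene, 354 bp in ein2 air, 537 bp in Col-0 ethylene and 418 bp in Col-0 air, and the share of wider regions was 0.98% in ein2 ethylene and 27.2% in ein2 air.

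ETR1, the subfamily I receptor that was the first ethylene receptor to be identified, had a region in every set but with very different standing. It spanned 24734063 to 24734389 of chromosome 1 in ein2 ethylene, at a fold of 3.58. In ein2 air it spanned 24734105 to 24734370, with a fold of 4.73. A higher fold than that of ETR1 was listed for 13.1% of the regions in ein2 ethylene and 20.7% in ein2 air.

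In Col-0 ethylene the ETR1 region spanned 24734114 to 24734328 where its fold was 3.46 and 62.4% of the set ranked higher. In Col-0 air it spanned 24734080 to 24734400 where its fold was 8.57 and 3.99% of the set ranked higher. ETR1 was thus in the lower part of the Col-0 ethylene set and in the upper part of the other 3. Ranked by −log10 p, 19.6% of the regions were above ETR1 in ein2 ethylene, 34.6% in ein2 air, 59.5% in Col-0 ethylene and 10.5% in Col-0 air. The summits stayed within 26 bp of each other, from 24734216 to 24734242, and those of ein2 ethylene and Col-0 air were at the same base. The region was 327, 266, 215 and 321 bp wide in ein2 ethylene, ein2 air, Col-0 ethylene and Col-0 air, and in Col-0 ethylene 86.3% of all regions were wider than it.

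**Figure D2:**
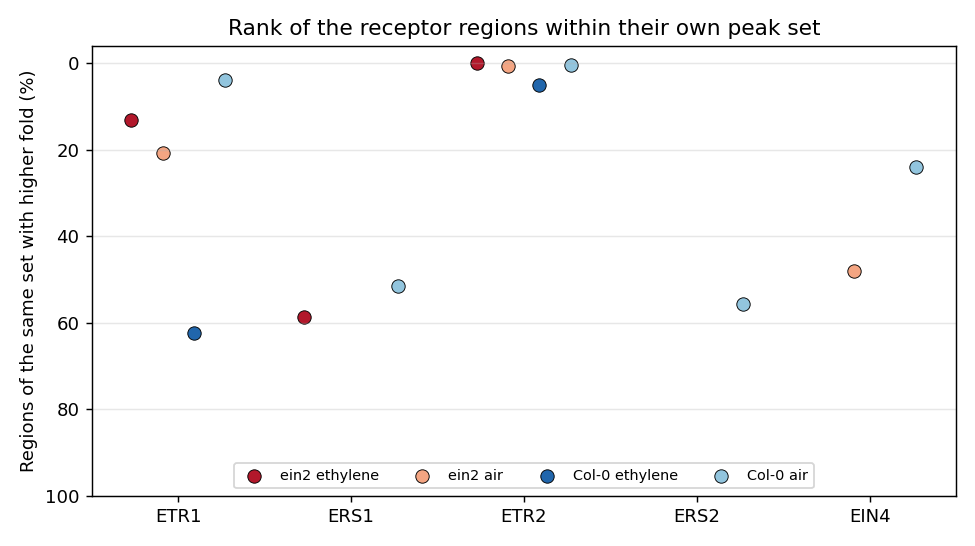
Points show, for each receptor gene, the percentage of regions of the same peak set with a higher fold (vertical axis, reversed so that strong regions are at the top), coloured by set; a missing point means no region. ETR2 stays between 0.021% and 4.94% in the 4 sets, whereas ETR1 lies at 62.4% in Col-0 ethylene and between 3.99% and 20.7% in the other sets.

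EIN4, a subfamily II receptor with a receiver domain, had a region in both air sets and in neither ethylene set. In ein2 air it spanned 1238349 to 1238594 of chromosome 3, where its fold was 3.76 and 48.2% of the set ranked higher. In Col-0 air it spanned 1238304 to 1238608, where its fold was 5.52 and 24.0% of the set ranked higher. The ein2 air region lay wholly within the Col-0 air one, with summits 20 bp apart. The −log10 q was 16.1 in ein2 air and 44.0 in Col-0 air, so that a minimum of 20 removes EIN4 from ein2 air and leaves it in Col-0 air.

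All of the EIN4 region was inside the gene, with the summit 165 bp from the edge in ein2 air and 185 bp in Col-0 air. The next gene, AT3G04590, lies 222 bp beyond that edge, so the same region is counted for it as well. The nearest region in the ethylene sets was 2902 bp from EIN4 in ein2 ethylene and 2633 bp in Col-0 ethylene. The air sets also had a further region beyond EIN4, 4207 bp away in ein2 air and 2768 bp in Col-0 air. AT3G04590 had a region in all 4 sets, also where none was listed at EIN4.

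ERS1, the subfamily I receptor without a receiver domain, had a region in ein2 ethylene and in Col-0 air. In ein2 ethylene it spanned 17087306 to 17087534 of chromosome 2, where its fold was 2.59 and 58.8% of the set ranked higher. In Col-0 air it spanned 17087309 to 17087507, where its fold was 4.30 and 51.5% of the set ranked higher. Both were narrow regions of middling rank, 229 and 199 bp wide, with summits 27 bp apart.

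At ERS1 only 21 bp of the ein2 ethylene region and 18 bp of the Col-0 air region lay inside the gene. The rest fell in the 238 bp that separate ERS1 from BZIP17 (AT2G40950), which encodes a membrane-tethered bZIP transcription factor of the stress response. The summit was 67 bp from ERS1 in ein2 ethylene and 94 bp in Col-0 air, and 145 to 172 bp from BZIP17, so the region cannot be assigned to ERS1 alone. Another region lay further out on the side of BZIP17 in every set. It was 2980 bp from ERS1 in ein2 ethylene, 3015 bp in ein2 air, 3023 bp in Col-0 ethylene and 2956 bp in Col-0 air. BZIP17 had a region in all 4 sets, also where none was listed at ERS1. The −log10 q of the ERS1 region was 8.54 in ein2 ethylene, below the lowest value kept in ein2 air and in Col-0 ethylene, and 25.4 in Col-0 air, above both.

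ERS2, the subfamily II receptor without a receiver domain, was found in Col-0 air and in no other set. It spanned 1157663 to 1157975 of chromosome 1 at a fold of 4.17, its summit lying 60 bp outside the gene. Of the Col-0 air regions 55.7% had a higher fold, which makes it the weakest of the 5 receptor regions there. Its −log10 q was 17.04, where the lowest kept in that set was 13.4.

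**Figure D3:**
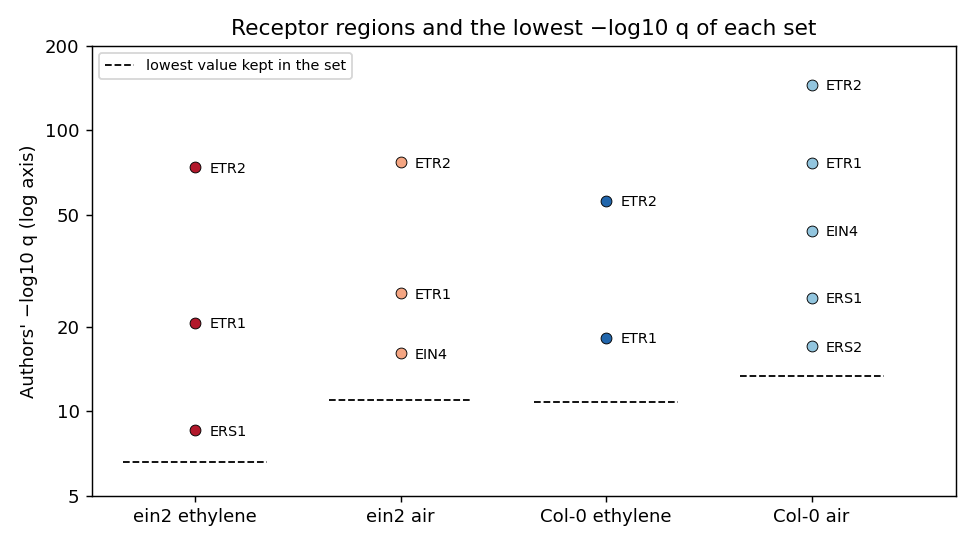
Points are the receptor regions of each peak set by the authors' −log10 q (vertical log axis), and the dashed line is the lowest value kept in that set. In Col-0 air the order is ETR2, ETR1, EIN4, ERS1 and ERS2, and the closest to the line are ERS1 in ein2 ethylene, at 8.54 above 6.57, and ERS2 in Col-0 air, at 17.04 above 13.4.

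The order by fold in Col-0 air was ETR2, ETR1, EIN4, ERS1 and ERS2, with 12.8, 8.57, 5.52, 4.30 and 4.17, and no receptor was in more sets than a receptor of higher fold. Among Col-0 air regions in general, those of higher fold were found in more sets. The highest decile of Col-0 air fold, of 786 regions, holds ETR2 and ETR1. Of these regions 99.5% shared a chain of overlapping regions with ein2 ethylene, 96.4% with ein2 air and 93.3% with Col-0 ethylene. Of the 785 in the decile of EIN4, the third from the top, 78.0%, 62.7% and 69.6% did so in the same order of sets. Of the 787 in the decile of ERS1 and ERS2, the sixth, 41.4%, 25.4% and 42.7% did. The absence of ERS2 from the other 3 sets and of ERS1 from ein2 air and Col-0 ethylene is thus the more common outcome at their fold. The absence of EIN4 from the ethylene sets is the less common outcome at its fold, shared by 22.0% of its decile in ein2 ethylene and 30.4% in Col-0 ethylene.

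Ethylene was compared with air in ein2, where EIN2-dependent signalling is missing. ETR1 and ETR2 had a region in ein2 ethylene and in ein2 air, ERS1 in ein2 ethylene alone and EIN4 in ein2 air alone. The −log10 q of the ERS1 region was 8.54, below the lowest value kept in ein2 air, 10.9. Over all genes, 15.1% of those present in ein2 air were missing from ein2 ethylene, and 9.73% of those missing from ein2 air were present in ein2 ethylene. Among the 2652 regions shared by these sets, 19.8% had a higher fold than ETR1 in ein2 ethylene and 25.2% in ein2 air. For ETR2 the shares were 0.038% in ein2 ethylene and 0.679% in ein2 air. Differences at least this large between the paired ranks were found for 78.7% of the shared regions in the case of ETR1 and 96.9% in that of ETR2.

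In Col-0 the same comparison asks where occupancy differs when the pathway is intact. Since all 5 receptors were present in Col-0 air, none could be found in Col-0 ethylene alone. ERS1, ERS2 and EIN4, 3 of the 5 with an air region, had none in Col-0 ethylene, against 33.3% of all genes with an air region. With the same number of regions from every set (3252, those of lowest p), ERS1 and ERS2 had no Col-0 air region either. Col-0 air then kept ETR1, ETR2 and EIN4, where 17.5% of all genes had a region. Col-0 ethylene kept ETR1 and ETR2, where 17.7% did. The share of all genes losing an air region at this setting was not computed, so the loss of EIN4 has no background. Of the 4503 regions shared by these sets, 67.3% had a higher fold than ETR1 in Col-0 ethylene and 6.64% in Col-0 air, a difference of 60.7 percentage points. A difference at least as large, in either direction, was found for 145 of the 4503 regions (3.22%). For ETR2 the shares were 5.60% in Col-0 ethylene and 0.533% in Col-0 air, and 82.6% of the shared regions differed by at least as much. Of these receptors, ETR1 thus had the lower standing in both sets, and the distance to ETR2 was wider in Col-0 ethylene than in Col-0 air, a description of single sets with no replicate check.

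Comparing the lines asks whether EIN2 bears on ENAP1 occupancy at its upstream receptors. In air, ein2 lacked a region at ERS1 and ERS2, 2 of the 5 receptor genes with one in Col-0. Of all genes with a Col-0 air region, 53.1% had none in ein2 air. The Col-0 air set is the larger, at 7852 regions beside 3252. Cut by p to the size of the ein2 air set, Col-0 air lacked ERS1 and ERS2 as well. Both air sets then held ETR1, ETR2 and EIN4, so the lines did not differ in receptor genes at equal size. Among the 3160 regions shared by the air sets, 48.6% had a higher fold than EIN4 in ein2 air and 51.0% in Col-0 air. The corresponding shares for ETR1 were 21.3% in ein2 air and 9.65% in Col-0 air, and for ETR2 0.57% in ein2 air and 0.759% in Col-0 air. The 3 receptors found in both air sets thus kept the same order, ETR2, ETR1 and EIN4.

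In ethylene, ein2 had a region at ETR1 and ETR2, the 2 receptor genes with one in Col-0, whereas 37.5% of all genes with a Col-0 ethylene region had none in ein2 ethylene. It had ERS1 in addition, as did 8.17% of all genes without a Col-0 ethylene region. The −log10 q of that ERS1 region was 8.54, below the lowest value kept in Col-0 ethylene, 10.8. A region of that −log10 q would not have been listed in Col-0 ethylene. Among the 2918 regions shared by the ethylene sets, 17.5% had a higher fold than ETR1 in ein2 ethylene and 76.2% in Col-0 ethylene. Of these regions 14.5% differed by at least as much in rank. ETR2 stood high in both, with 0.034% of shared regions above it in ein2 ethylene and 8.33% in Col-0 ethylene.

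Of 12 partners and downstream genes of the receptors, 5 were found in ein2 ethylene, 3 in ein2 air, 4 in Col-0 ethylene and 7 in Col-0 air. These are 41.7%, 25%, 33.3% and 58.3% of the list, beside 22.4%, 16.9%, 26.2% and 35.5% of all genes. RAN1, the copper transporter that supplies the receptors, had a region in no set, and neither had RTE1, a membrane partner of ETR1, nor its homolog RTH. CTR1, the kinase that binds the receptors, had one in Col-0 air, where 63.6% of the regions were higher. EIN2 and the exonuclease gene EIN5 were the 2 genes of this list in all 4 sets. At EIN5 0.49% of the regions had a higher fold in ein2 ethylene, 7.53% in ein2 air, 50.1% in Col-0 ethylene and 1.35% in Col-0 air. Like ETR1 and ETR2, EIN5 thus ranked lowest in Col-0 ethylene. EIN2 had 37.9%, 3.598%, 0.681% and 8.04% of the regions above it in the same order of sets, so that its rank was highest in Col-0 ethylene. EIL1 and EBF1, an F-box gene whose protein targets EIN3, had the same pattern as ERS1.

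Of 11 two-component relatives of the receptors, which comprise the cytokinin receptors, other histidine kinases and the phytochromes, 2 had a region in ein2 ethylene (18.2%, beside 22.4% of all genes), 1 in ein2 air (9.09%, beside 16.9%), 2 in Col-0 ethylene (18.2%, beside 26.2%) and 5 in Col-0 air (45.5%, beside 35.5%). The histidine kinase gene AHK5 was in all 4 sets, with 9.69% of the regions above it in ein2 ethylene, 11.3% in ein2 air, 62.3% in Col-0 ethylene and 39.8% in Col-0 air. The cytokinin receptor genes AHK3 and AHK4 were in Col-0 air alone, as was PHYD. Of 15 receptor genes of other hormones, 6, 4, 5 and 8 had a region in ein2 ethylene, ein2 air, Col-0 ethylene and Col-0 air, which are 40%, 26.7%, 33.3% and 53.3% beside the same shares of all genes. The brassinosteroid receptor gene BRI1, the abscisic acid receptor gene PYR1, the strigolactone receptor gene D14 and the karrikin receptor gene KAI2 were in all sets. Like EIN2, BRI1, D14 and KAI2 ranked highest in Col-0 ethylene, where 0.487%, 10.1% and 3.56% of the regions were higher. Like ETR1, AHK5 and PYR1 ranked lowest there, at 62.3% and 70.6%. None of these lists was complete in any set, whereas all 5 ethylene receptor genes were found in Col-0 air. The lists have 12, 11 and 15 genes, and a longer list is less easily complete, so this contrast does not set the receptors apart. It also rests on the largest set. With equal numbers of regions Col-0 air kept 3 of the 5 receptor genes, ETR1, ETR2 and EIN4. Each list is short, and no list was tested against another.

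**Figure D4:**
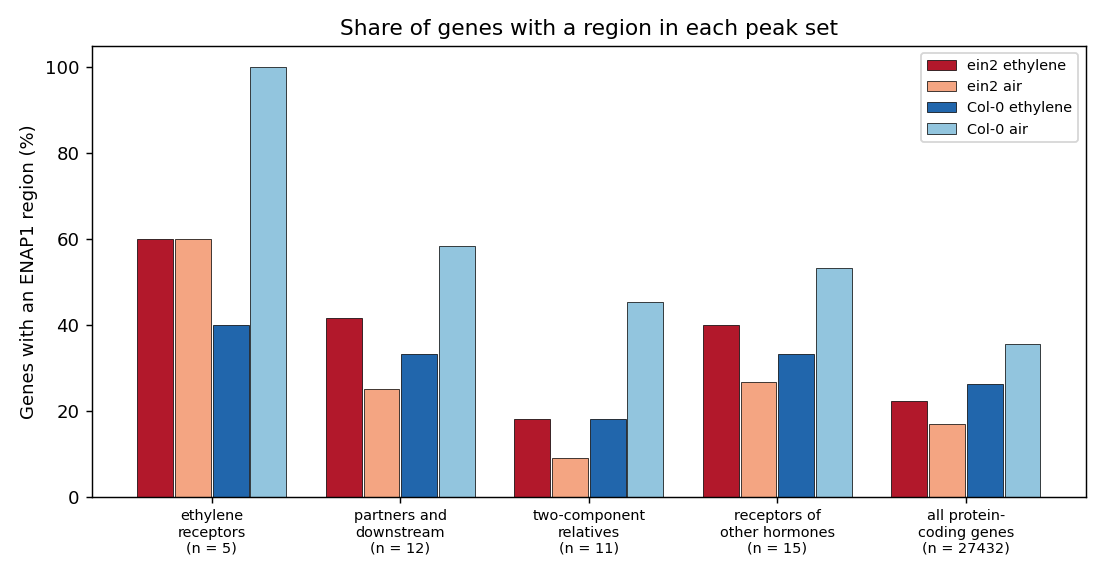
Bars give the percentage of genes of each list with an ENAP1 region (vertical axis), with the 4 peak sets side by side and all protein-coding genes at the right. Col-0 air has the highest share in every list, with 5 of 5 ethylene receptor genes against 35.5% of all genes, and Col-0 ethylene has 2 of 5 against 26.2%.

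Genes with the pattern most like each receptor were sought among genes with regions in the same sets, by the mean absolute difference in the percentage of regions of higher fold. For ETR1 these were MYB1 (AT3G09230) and SYP122 (AT3G52400), with mean differences of 1.71 and 3.48 percentage points over 4 sets. At MYB1 16.7%, 20.5%, 63.4% and 5.92% of the regions were higher in ein2 ethylene, ein2 air, Col-0 ethylene and Col-0 air. For ETR2 they were the adjacent genes AT1G76620 and AT1G76630, which share their regions, at 0.388 points over 4 sets. For EIN4, AT1G63490 and AT3G59590 differed by 3.37 and 4.16 points over 2 sets. For ERS1 the closest, ATR1 (AT4G24520) and AT4G24530, differed by 0.879 points over 2 sets, and for ERS2, VCS (AT3G13300) and AT3G13310 by 0.013 points in the single set. These matches rest on few sets, and how often matches as close arise was not computed. The candidates of the same pattern numbered 3514 for ETR1 and for ETR2, 1914 for ERS2, 836 for ERS1 and 106 for EIN4.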

How the data were processed

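Per the submitters' processing notes, reads of the ENAP1 ChIP and input samples went through BWA and MACS2 2.1.0.20150603, with TAIR10 as the build. The sources used here give neither the threshold for peaks nor whether replicates were pooled. The authors deposited 1 peak list per condition, which gives position, a score, fold enrichment as a ratio, and −log10 p and −log10 q. Of 6 peak files, 4 were used, and the 2 that no sample label names were not.

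Gene spans came from the RefSeq table of assembly TAIR10.1, whose coordinates are not printed. As a check of the builds, 71.3% to 75.6% of summits lay within 300 bp of a gene edge, against at most 28.3% when shifted by 2000 or 5000 bp. Overlap meant at least 1 bp, and starts are 1-based. The overlap code was tested on simulated data. Shared regions were chains of overlapping regions, with the strongest region of each set ranked over the same chains. Work was done with Python 3.11.15 and pandas 2.3.3.

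No test was possible with 1 set per condition. Receptors and lists were chosen with earlier results of these data known; shared ranks and deciles were added after seeing the data. Named genes were all list members, genes within 1000 bp of a receptor region and the 2 genes of most similar pattern per receptor. The planned motif counts and protein identities were not run, because no sequence was used here. Alternatives were other q, p and fold minima, gene windows, overlap rules and ranking columns.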

Additional observations from a re-analysis of the deposited data

Results flagged for a closer look

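The following values were singled out because the ethylene difference had opposite signs in the 2 lines; these differences between lines were not tested, since each condition has 1 peak set. At ERS1 the number of regions in ethylene minus that in air was 1 in ein2 and -1 in Col-0. At ETR1 the percentage of shared regions of higher fold in ethylene minus that in air was -5.43 percentage points in ein2 and 60.7 in Col-0. At ETR2 it was -0.641 points in ein2 and 5.06 in Col-0. Differences at least as large, in either direction, were found for 78.7% (ETR1) and 96.9% (ETR2) of the regions shared by the ein2 sets. Among those shared by the Col-0 sets they were found for 3.22% (ETR1) and 82.6% (ETR2). How often the signs were opposite over all shared regions was not computed. The ERS1 region of ein2 ethylene had a −log10 q of 8.54, below the lowest value kept in ein2 air (10.9) and in Col-0 ethylene (10.8), whereas that of Col-0 air had 25.4, above both.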

How the results depend on the processing

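Results were held to a limit of 1.5 times the reported value, which a fall from 3 to 2 receptor genes does not exceed. The number of receptor genes with a region and the overlaps between sets stayed within it in 38 of 40 combinations of result and alternative. The exceptions were Col-0 ethylene at a −log10 q of at least 20, with 1 receptor gene (ETR2) where 15.3% of all genes had a region, and Col-0 air when the 3252 regions of lowest p were taken from every set, with 3 (ETR1, ETR2 and EIN4) where 17.5% of all genes had one. A −log10 q of at least 20 also removed EIN4 from ein2 air, leaving 2 receptor genes there, where 9.07% of all genes had one. It likewise removed ERS2 from Col-0 air, leaving 4 receptor genes (27.0% of all genes), and ERS1 from ein2 ethylene, leaving 2 (5.42%). A fold of at least 3 and equal numbers of regions also removed ERS1 from ein2 ethylene, leaving 2 receptor genes (7.27% and 16.5% of all genes). At a −log10 q of at least 13.4 in every set, ERS1 was lost from ein2 ethylene, leaving 2 receptor genes there (10.4% of all genes). The counts of 3, 2 and 5 in ein2 air, Col-0 ethylene and Col-0 air did not change (14.3%, 22.2% and 35.5% of all genes). The Col-0 air count could not change, because 13.4 is the lowest value kept in that set. Ranking by −log10 p in place of fold placed 12 of 13 regions lower in their set, by up to 24.9 percentage points for ERS2 in Col-0 air. In an alternative added after seeing the data, ranking shared regions by −log10 p gave 47.8 in place of 60.7 points for ETR1 in Col-0 ethylene minus air and 10.9 in place of 5.06 for ETR2. In ein2 ethylene minus ein2 air it gave -8.14 in place of -5.43 for ETR1 and -1.58 in place of -0.641 for ETR2, and for ETR2 in ein2 ethylene minus Col-0 ethylene -16.9 in place of -8.29. For ETR2, ein2 air minus Col-0 air had the opposite sign, 0.222 in place of -0.19 points; the cause was not tested. No paired analysis was possible because both replicates of a condition share 1 peak set; for the same reason no replicate could be left out.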
